A study of Mus musculus with 2 samples.

Results

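Distal regions of open chromatin that were at least 2-fold higher in livers lacking Mettl3 in hepatocytes were examined by ATAC-seq, which uses the Tn5 transposase to cut accessible DNA and tag it for sequencing. A region was distal when its distance to the closest transcription start site (TSS) was over 1000 bp. It entered when the summed count of both libraries was at least 150, and it was chosen when the log2 of the scaled count in Mettl3-HKO over that in Mettl3 flox/flox, the log2 ratio below, was at least 1. Of 69549 distinct regions, 55162 were distal, 25698 of those reached the count minimum, and 1491 were chosen. These regions were selected on their measured counts, so their higher signal is a description and carries no test.

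The study asked how the RNA methyltransferase METTL3 acts in fatty liver disease and its progression to steatohepatitis. One library came from liver nuclei of Mettl3 flox/flox mice and 1 from those of Mettl3-HKO mice, whose genotype was Mettl3 flox/flox Alb-Cre+/-. All mice were C57BL/6, 8 weeks of age and fed normal chow. According to the methods of the study, each library pooled the livers of 4 mice. Both groups carried the floxed allele, and only the Mettl3-HKO mice carried Cre, whose albumin (Alb) promoter is active in hepatocytes, so that the deletion is aimed at these cells. In pooled whole tissue, a higher count from more cells of a type and a higher count per cell cannot be told apart. Since each group gave 1 pooled library, the spread between mice was not measured. All intervals below are 95% Clopper-Pearson intervals of counting error.

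Most sites of open chromatin away from promoters are enhancers, insulators or alternative promoters, where transcription factors displace nucleosomes. In liver, enhancers bound by factors such as HNF4A, FOXA2 and C/EBP proteins keep hepatocyte genes active. A distal region need not act on the gene nearest to it, so gene names below give positions and no target. METTL3 methylates adenosines in RNA, and open chromatin is therefore not a direct readout of its enzymatic activity.

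Counts had been scaled to totals of 52826202 reads for Mettl3 flox/flox and 58038305 for Mettl3-HKO. Where a pair of counts is given below, the first is that of Mettl3 flox/flox and the second that of Mettl3-HKO. Of these reads, 31.7% and 22.3% lay on the regions. Over all regions the median log2 ratio was -0.38. Centring on it would raise every log2 ratio given here by that amount. Of all distinct regions, 13.2% were at least 2-fold higher in the Mettl3-HKO library. Among distal regions with at least 150 summed counts, the share was 5.80%, which is the background for shares near named genes where none at the same signal is given.

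The table gives 1 TSS per gene, and some chosen regions lay over a start of a gene in RefSeq. Of the 1448 chosen regions on chromosomes with RefSeq promoter windows, 24 overlapped such a window, a share of 1.66%, against 2.94% of other distal regions weighted to the same signal. In 11 cases the window belonged to a protein-coding gene. The windows below, from RefSeq on GRCm38.p6, run from 250 bases before to 50 bases after a start, and they are shown because chosen regions lay over them at genes with known roles. The regions covered the whole window at Pparg, Cyp3a11 and Anxa2 and the last 218 of its 300 bases at H1f3. Pparg encodes the nuclear receptor of fat storage, Cyp3a11 a drug- and steroid-metabolizing cytochrome P450, H1f3 (older symbol Hist1h1d) a linker histone and Anxa2 a membrane-binding annexin. Capitals mark matches to 4 motifs sought on both strands, namely the TATA box TATAAA, the CCAAT box CCAAT, the AP-1 site TGANTCA and the nuclear receptor half-site AGGTCA. The Pparg window is chr6:115421816-115422115 on the plus strand, the Cyp3a11 window chr5:145879805-145880104 on the minus strand, the H1f3 window chr13:23554782-23555081 on the plus strand and the Anxa2 window chr9:69453433-69453732 on the plus strand.
Pparg: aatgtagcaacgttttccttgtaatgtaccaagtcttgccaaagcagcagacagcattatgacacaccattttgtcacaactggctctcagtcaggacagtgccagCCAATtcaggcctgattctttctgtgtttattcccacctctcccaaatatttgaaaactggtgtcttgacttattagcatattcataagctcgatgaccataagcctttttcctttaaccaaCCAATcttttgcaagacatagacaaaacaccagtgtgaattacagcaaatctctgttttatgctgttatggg
Cyp3a11: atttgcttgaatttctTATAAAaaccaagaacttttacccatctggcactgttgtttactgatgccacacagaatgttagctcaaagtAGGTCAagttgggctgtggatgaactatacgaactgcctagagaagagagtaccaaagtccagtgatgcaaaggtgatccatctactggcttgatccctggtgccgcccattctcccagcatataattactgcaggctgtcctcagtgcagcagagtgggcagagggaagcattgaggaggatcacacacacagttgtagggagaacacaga
H1f3: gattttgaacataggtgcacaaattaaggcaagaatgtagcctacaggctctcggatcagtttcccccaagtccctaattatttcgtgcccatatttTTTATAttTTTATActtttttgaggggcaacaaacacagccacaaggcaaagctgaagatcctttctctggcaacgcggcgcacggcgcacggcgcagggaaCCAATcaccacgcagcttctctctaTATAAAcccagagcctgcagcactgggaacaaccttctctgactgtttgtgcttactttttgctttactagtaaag
Anxa2: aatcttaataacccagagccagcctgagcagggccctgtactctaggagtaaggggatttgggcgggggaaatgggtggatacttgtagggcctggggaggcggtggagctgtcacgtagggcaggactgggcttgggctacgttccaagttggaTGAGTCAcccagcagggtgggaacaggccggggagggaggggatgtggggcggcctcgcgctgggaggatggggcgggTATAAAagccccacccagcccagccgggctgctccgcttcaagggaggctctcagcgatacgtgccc

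Among all 21263 windows of protein-coding genes, 12.6% held TATAAA, 38.2% CCAAT, 6.99% TGANTCA and 14.7% AGGTCA. The Pparg window held 2 CCAAT matches and none of the other motifs. The Cyp3a11 window held 1 TATAAA and 1 AGGTCA match, the H1f3 window 3 TATAAA and 1 CCAAT matches, and the Anxa2 window 1 TATAAA and 1 TGANTCA match. A match is a description of the letters and not a bound site. The 11 windows had a median GC content of 56.0%, against 56.3% over all coding windows, and a median of 7 CG dinucleotides against 13.

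The chosen region over the Pparg window had 133 and 328 counts, a log2 ratio of 1.16 with an interval of 0.87 to 1.47. The region lay inside Pparg, 43057 bp downstream of its closest TSS in the table, which belongs to another gene without a symbol. The Cyp3a11 region went from 118 to 302 counts, a log2 ratio of 1.21 (0.91 to 1.54). The H1f3 region also covered the histone gene body and went from 405 to 1523 counts, a log2 ratio of 1.77 (1.62 to 1.94). The Anxa2 region went from 43 to 187 counts, a log2 ratio of 1.96. The other coding windows over chosen regions belonged to Zbtb20, Sh3tc1, Mark2, Ddr1, Spats2l, Nupr1 and Gm52481, with log2 ratios from 1.10 for Gm52481 to 2.36 for Ddr1, a collagen-receptor tyrosine kinase with 30 and 174 counts.

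Chosen regions had low counts in the Mettl3 flox/flox library. Their counts there ran from 7 to 2309 with a median of 52. For Mettl3-HKO they ran from 104 to 6060 with a median of 168. The median log2 ratio was 1.47, with quartiles of 1.20 and 1.95 and a highest value of 5.14. At least a 4-fold difference was seen in 339 regions (22.7%), at least 8-fold in 70 and at least 16-fold in 9. The interval of counting error had a median width of 0.95, and its lower bounds, the lowest at 0.52, are kept above 0 by the choice itself.

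**Figure D1:**
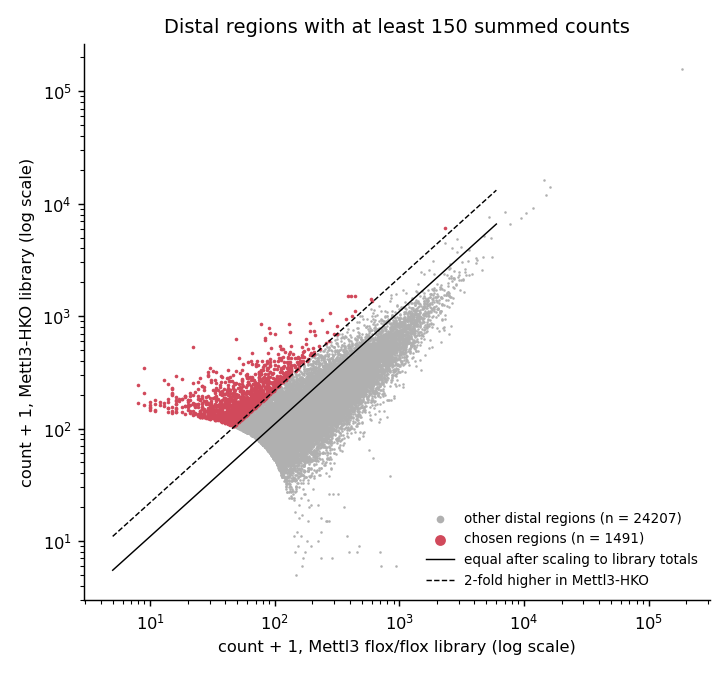
Count of each distal region with at least 150 summed counts in the Mettl3 flox/flox library (x axis) and in its Mettl3-HKO counterpart (y axis), both on log scales with 1 added. The 1491 chosen regions (red) lie above the dashed 2-fold line and mostly at low Mettl3 flox/flox counts, with a median of 52, and the 24207 others (grey) lie below it.

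A peak had been called in both libraries in 904 chosen regions, whose median log2 ratio was 1.32. In the other 587 regions (39.4%) a peak had been called only in the Mettl3-HKO library, and their median was 1.92. Among other distal regions the share with a peak only in Mettl3-HKO was 4.57% after weighting to the same signal. None of the chosen regions had a peak only in the Mettl3 flox/flox library. Peak calls come from the same reads as the counts, so this share is tied to the choice of regions.

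The values at the thresholds were close to each other. The chosen region with the lowest log2 ratio, in an intron of App, had 272 and 599 counts and a log2 ratio of 1.0003, and the highest one not chosen, in an intron of Ahcyl2, had 60 and 133 counts and a ratio of 0.9996. At the count minimum, a region near Stau2 with 25 and 125 counts was inside, while a region on chromosome 1 with 45 and 104 counts was outside.

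Chosen regions were scarcer among strong distal regions. They made up 11.2% of distal regions with 150 to 199 summed counts (613 regions), 5.03% of those with 300 to 399 (187 regions) and 0.923% of those with 600 or more (56 regions). Where shares or medians of other distal regions are called weighted, the others were therefore weighted to the numbers of chosen regions in 6 classes of summed count. Shares of regions that were chosen, by distance, chromosome, neighbour or gene, are unweighted.

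The length of chosen regions exceeded that of others at equal signal. Their median length was 489 bp, with quartiles of 399 and 634 bp, against a weighted median of 435 bp for other distal regions. In each class of signal the chosen regions were longer, from 424 against 386 bp in the lowest class to 834 against 785 bp in the highest. The direction rested on the weighting. Without weights the others had a median of 519 bp, so that chosen regions were 30 bp shorter. With classes of the Mettl3-HKO count in place of the summed count they were 60 bp shorter. Fewer chosen regions had 2 or more peak summits, 69.9% against a weighted 85.8%. Summits come with the peak calls, and a peak in both libraries was called in 60.6% of chosen regions against a weighted 84.0%. This share is therefore also tied to the choice of regions.

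Over all classes of signal together, chosen regions lay farther from the closest TSS. The median distance to the closest TSS was 18974 bp, with quartiles of 8474 and 41407 bp, against a weighted median of 14500 bp for other distal regions. Among the 56 regions with 600 or more summed counts the order was the opposite, 11076 bp against 12521 bp for others. The share of regions that were chosen was 3.79% at 1 to 5 kb from a TSS, 5.53% at 5 to 20 kb, 6.78% at 20 to 50 kb, 7.03% at 50 to 100 kb and 9.43% beyond 100 kb. The median log2 ratio of chosen regions was between 1.41 and 1.48 in the classes up to 100 kb and 1.63 beyond. Of the chosen regions, 702 lay upstream and 789 (52.9%) downstream of the closest TSS, against 55.2% downstream among other distal regions, unweighted.

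**Figure D2:**
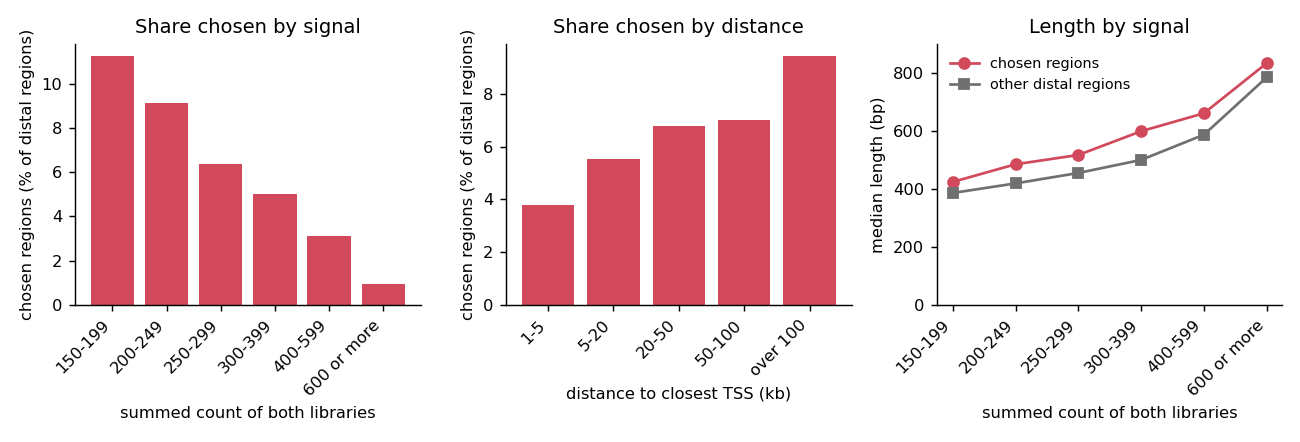
Chosen regions as a percentage of distal regions with at least 150 summed counts, by summed count (left) and by distance to the closest TSS (middle), and median length of chosen (red) and other (grey) distal regions by summed count (right). The share falls from 11.2% to 0.923% with signal and rises from 3.79% to 9.43% with distance, and chosen regions are longer in every class of summed count, a direction that turned when the others were not weighted by it.

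By the annotation of the table at the region's centre, 782 chosen regions (52.4%) were intergenic, 646 (43.3%) in introns and 63 (4.23%) in exons or UTRs. The weighted shares of other distal regions were 46.7%, 48.1% and 5.21%. By RefSeq, 699 chosen regions (46.9%) had their centre inside a protein-coding gene, against a weighted 55.8% of others. The region farthest from a TSS lay 444415 bp away, inside Pcdh15, a protocadherin gene, with 42 and 116 counts. The next 4 were 403718 bp from Iftap, in Ctnna3, and 857410 and 815945 bp from Cntnap5a, with log2 ratios from 1.35 to 2.81.

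Chromosomes contributed unequally. The share chosen ran from 1.34% on chromosome 19, with 9 of 670 regions, to 8.28% on chromosome 3, with 134 of 1618. Chromosome 1 held 147 chosen regions, 7.83% of its distal regions of that signal, and chromosome 11 held 50, or 3.92%.

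Chosen regions occurred together along chromosomes. Another chosen region lay within 50 kb of 421 of them (28.2%), whereas 9.94% of other distal regions, weighted, had a chosen region that close. When the following distal region was at most 2 kb away, it was chosen after 56 of 136 chosen regions (41.2%) and after 2.14% of others. At gaps of 2 to 10 kb the shares were 22.8% and 3.50%, at 10 to 50 kb 15.6% and 4.75%, and beyond 50 kb 13.2% and 7.76%. Joining neighbours within 50 kb left 1070 chosen regions alone, 133 runs of 2, 34 of 3, 9 of 4, 2 of 5 and 1 of 7. Close neighbours lie on the same stretch of chromatin, so the regions of a run are not taken as independent of each other.

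**Figure D3:**
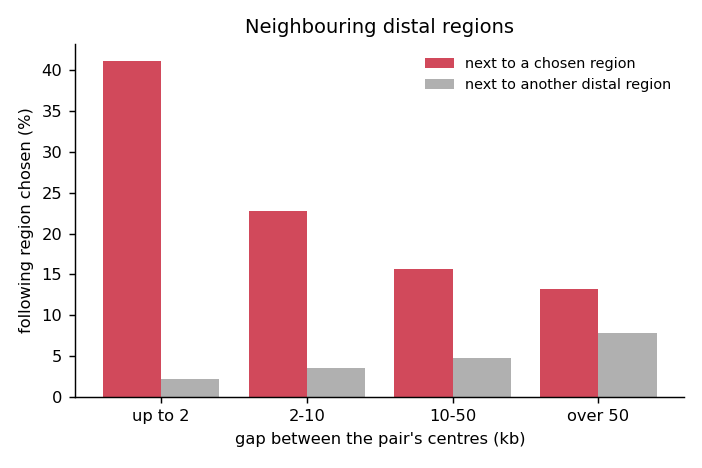
Percentage of distal regions that were chosen (y axis) when the preceding distal region was chosen (red) or not (grey), by the gap between the centres of the pair (x axis, kb). The red bars fall from 41.2% at up to 2 kb to 13.2% beyond 50 kb and are above the grey bars, 2.14% to 7.76%, at every gap.

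The run with the most chosen regions lay at chr1:135177797-135183689, upstream of Gpr37l1, a gene for an orphan G protein-coupled receptor known from glial cells. Its 7 regions, all intergenic and all without a peak in the Mettl3 flox/flox library, spanned 5.89 kb. Per region, 7 to 29 counts came from Mettl3 flox/flox and 161 to 348 from Mettl3-HKO, a gap that the choice by ratio favours. In all the run held 91 and 1737 counts. The single region with the highest log2 ratio of all chosen regions, chr1:135180948-135181312, was in this run, with 8 and 348 counts and a log2 ratio of 5.14 (4.31 to 6.53). No distal region of at least 150 counts within the run was left unchosen.

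The second run, chr1:118340759-118370624, held 5 chosen regions between Nifk, which encodes a nucleolar protein, and Clasp1, which encodes a microtubule-binding protein. Its regions had 529 and 2285 summed counts. The first of them stood at 11 and 161 counts (log2 ratio 3.62) and the strongest at 278 and 1058 (1.79). Near and within Pawr, a gene for a pro-apoptotic protein, 5 of 8 distal regions of that signal at chr10:108385409-108445480 were chosen, with 327 and 1246 summed counts. The largest counts there, 112 and 507, were at the region closest to a TSS.

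The remaining large runs held 4 regions each. In Dlgap1, whose product is a scaffold of synapses, the counts of the 4 regions at chr17:70745347-70797771 were 30 and 125, 113 and 511, 163 and 387, and 21 and 529. The last of these had a log2 ratio of 4.45 (3.89 to 5.22). On the X chromosome, 4 regions at chrX:139038279-139078879 lay between Nrk and Serpina7, the gene of thyroxine-binding globulin, with 444 and 1523 summed counts. Around Phlda1, a stress- and growth-factor-responsive gene, 4 regions at chr10:111544568-111588642 had 458 and 1269. Further runs of 4 lay in Zbtb20 (441 and 1251 counts), near Zfp281 (289 and 891), near Nt5e (205 and 882), in Dab2ip (162 and 835), from the start to past the end of Cyp3a11 (296 and 780) and in a stretch of tRNA and histone genes on chromosome 13 (154 and 720).

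**Figure D4:**
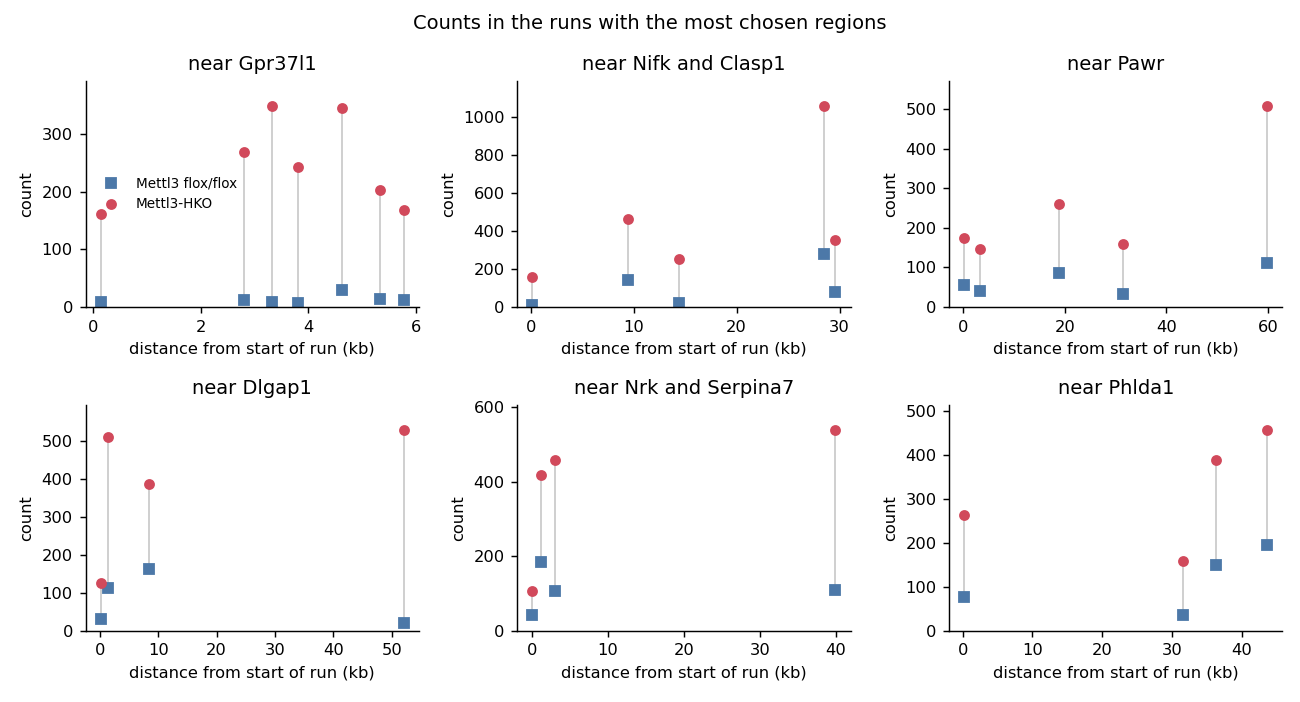
Counts for Mettl3 flox/flox (blue squares) and Mettl3-HKO (red circles) of each chosen region in the 6 runs with the most chosen regions, against the distance of its centre from the start of the run (kb). Each grey line joins the counts of 1 region, and near Gpr37l1 every blue value is between 7 and 29 and every red one between 161 and 348.

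Ranked by ratio, the regions after those near Gpr37l1 and in Dlgap1 lay in an intron of Bace2, a protease gene, with 8 and 206 counts (log2 ratio 4.39), and 235916 bp from Pgrmc2, with 7 and 167 (4.26). Regions in Kcnmb4, a potassium channel subunit gene, stood at 15 and 292 counts (4.06), upstream of Sstr1, a somatostatin receptor gene, at 8 and 161 (4.03), and near Ptprk, a phosphatase gene, at 13 and 248 (4.02). None of these regions had a peak called in the Mettl3 flox/flox library.

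Ranked by summed count, the strongest chosen region, chr12:104345107-104348710, was 3604 bp long, the longest chosen region, and its centre lay 1169 bp past the end of Serpina3k, which encodes a serine protease inhibitor secreted by hepatocytes. Its counts were 2309 and 6060, a log2 ratio of 1.26 (1.19 to 1.33). The region 379 bp past the end of Egr1, an immediate early transcription factor gene, had 586 and 1420 counts (1.14). An exonic region of Camk2b, a calmodulin-dependent kinase gene, had 605 and 1370 (1.04). Next by summed count came regions at Selenop, H1f3 and Btg2, then one 75030 bp from Cep128 with 439 and 1107 counts, an intronic region of Cep85 with 414 and 998, the region 19860 bp from Clasp1 with 278 and 1058, and one 788 bp past the end of Actg1, a cytoplasmic actin gene, with 373 and 950.

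Chosen regions just past the end of a gene were examined after their values were seen. Within 5 kb past the end of a protein-coding gene lay 21.4% of the 56 strongest chosen regions, against 8.12% of other distal regions of that signal, but 7.65% of all chosen regions (114), against a weighted 7.22% of others. The end of a gene was known for 92.6% of the 21900 protein-coding genes.

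Selenop, which carries selenium from the liver in plasma, had a region at chr15:3281040-3282868 with 439 and 1521 counts, a log2 ratio of 1.65, centred 1443 bp past its end and in an intron of the overlapping gene Ccdc152. The region over its RefSeq start had 608 and 666 counts, a log2 ratio of -0.0045. The region 787 bp past the end of Hpx, the gene of the heme-binding protein hemopexin, had 240 and 922 counts (1.80, from 1.60 to 2.02), while the region at its start had 988 and 892 (-0.28). Past the end of Hamp, the gene of the iron hormone hepcidin, counts were 191 and 870 (2.05, from 1.82 to 2.29), and at its start they were 311 and 610 (0.83). The regions past the end were chosen at a log2 ratio of at least 1 and those at the start did not have to reach it, which favours the higher value past the end.

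Adh1, an alcohol dehydrogenase gene, had 132 and 726 counts 1587 bp past its end, a log2 ratio of 2.31 (2.05 to 2.60), and 500 and 687 at its start (0.32). Serpina7 had 110 and 539 counts past its end (2.15) and 107 and 238 at its start (1.01). Complement C3 went from 142 to 367 counts past its end (1.23) and from 757 to 452 at its start (-0.88). The C3 pair differed in direction, as did others such as those of Hpx and Kng2. The transferrin gene Trf had 127 and 323 counts 872 bp past its end (1.20), and Kng2, a kininogen gene, 84 and 277 (1.57) with 655 and 452 at its start (-0.67). At the related Kng1 a chosen region of 2017 bp had 91 and 714 counts, a log2 ratio of 2.82 (2.52 to 3.17), and no peak in the Mettl3 flox/flox library.

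Such regions also lay at genes of other functions. Btg2, an antiproliferative gene, had 383 and 1503 counts 186 bp past its end (1.83, from 1.67 to 2.00), against 1021 and 1234 at its start (0.14). Arrdc3, an arrestin-family gene, had 176 and 629 past its end (1.70) and 2329 and 2555 at its start (-0.0022). Mmp15, a membrane-bound matrix protease gene, had 128 and 853 counts 3888 bp past its end, a log2 ratio of 2.59 (2.33 to 2.88), and 257 and 386 at its start (0.45). Over all 39 chosen regions of at least 300 summed counts past the end of a gene, 37 genes were named. For 26 of these genes a region lay over a RefSeq start, with a median log2 ratio of -0.31, from -1.44 to 1.21, and 8 of the 26 were above 0. The highest, at the start of Cyp3a11, was itself a chosen region. Across all 13163 genes with a promoter region, the median was -0.57 and 14.9% were above 0.

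**Figure D5:**
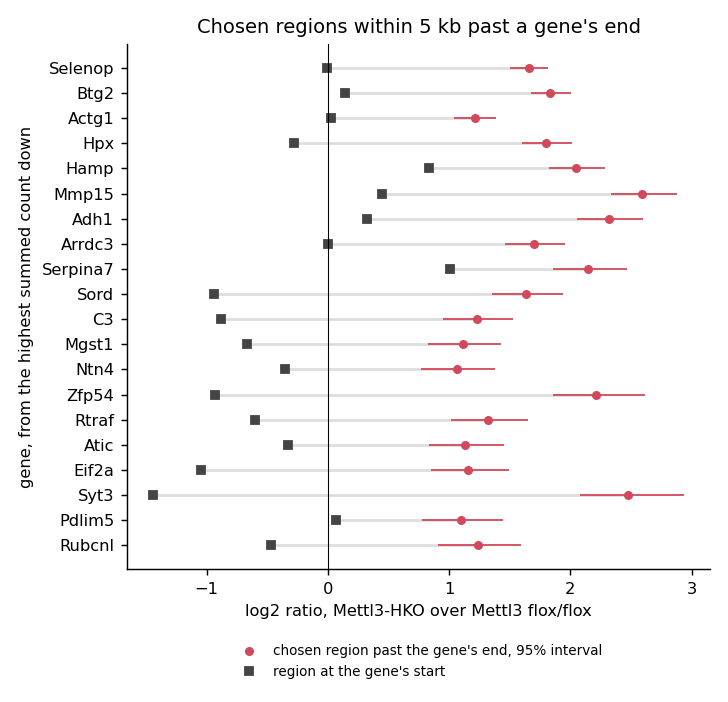
Log2 ratio, Mettl3-HKO to Mettl3 flox/flox (x axis), for the chosen region within 5 kb past a gene's end (red circles, with the 95% interval of counting error) and for the region over the same gene's RefSeq start (dark squares), for the 20 genes with the highest summed counts that have both. Each red circle is to the right of its square, a direction that the choice of red regions at a log2 ratio of at least 1 favours.

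By closest protein-coding gene in RefSeq, the chosen regions fell to 1154 genes. Gpr37l1 and Zbtb20 had 7 each, out of 9 and 27 distal regions of that signal. Zbtb20 encodes a zinc finger repressor that silences the alpha-fetoprotein gene in liver, and its 7 regions had 638 and 1904 summed counts, with log2 ratios from 1.12 to 2.46. Ankrd55 had 6 of 19 chosen (median log2 ratio 2.44), Cradd, an adaptor of cell death signalling, 6 of 10 (1.20), and Mcph1, the microcephalin gene, 6 of 15 (1.75). Genes with 5 chosen regions were Arid5b (of 22), Phlda1 (of 17), Pawr (of 14), Abcg2, a drug and urate transporter gene (of 8), Fbxl17 (of 15), Shroom3 (of 12) and Mgat5 (of 14). Long genes hold more regions, and these counts are not corrected for length.

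Genes were next read by lists. Since strong regions were chosen less often, each list's share stands beside the share chosen among all distal regions of the same classes of summed count. Of 86 distal regions closest to 12 hepatocyte marker genes, 1 was chosen (1.16%, against 4.03% at the same signal), in an intron of Cps1, the first enzyme of the urea cycle, with 73 and 204 counts. By closest TSS in the table, 2 of 76 were chosen (2.63%, against 3.92%), the other assigned to Apoa1. Near 15 hepatocyte transcription factor genes, 4 of 157 regions were chosen (2.55%, against 5.44% at the same signal, and 2 of 72 by closest TSS). They lay 29358 and 260199 bp from Foxa2, in Nr5a2 and in Onecut1, the last with 129 and 308 counts (1.11). The median log2 ratio over all distal regions near the markers was -0.61 and near the factors -0.65, against -0.51 over all 25698.

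Immediate early and AP-1 genes, which cells switch on within minutes of a stimulus, had 7 of 61 regions chosen by closest protein-coding gene (11.5%, against 4.37% at the same signal), near Atf3, Egr1, Fos, Fosb, Jun and Myc. By closest TSS only the Egr1 region of 25 was chosen (4%, against 3.98% at the same signal). The median log2 ratio was 0.052 over the 61 regions and -0.29 over the 25. Of these, the region 550 bp from Atf3 had 30 and 261 counts, a log2 ratio of 2.94 (2.44 to 3.58), and no peak in the Mettl3 flox/flox library. The region near Fosb had 43 and 120 counts (1.32). The others were farther away, 55700 bp from Fos with 109 and 256 counts, 231534 bp from Jun with 104 and 293, and 531332 and 753849 bp from Myc with 58 and 149 and with 66 and 247.

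Among 18 genes of lipid uptake and storage, 3 of 82 regions were chosen (3.66%, against 4.58% at the same signal, and 0 of 48 by closest TSS), and all 3 were in or near Pparg. Besides the one over its internal start, an intronic region had 55 and 166 counts (1.44) and a region 3735 bp outside the gene had 51 and 156 (1.46). No chosen region was closest to Cd36 or the other genes of that list. Of 19 inflammation and chemokine genes, Vcam1, an adhesion molecule gene, had 1 chosen region of 23 by closest protein-coding gene (34 and 138 counts, 1.85, a share of 4.35% against 4.90% at the same signal), and Nfkbia, an inhibitor of NF-kappaB, 1 of 16 by closest TSS (76 and 183 counts, 1.12, a share of 6.25% against 4.76%). These regions lay 29857 bp from Vcam1 and 45730 bp from the TSS of Nfkbia. Of 43 regions near TGF-beta and YAP genes, 3 were chosen (6.98%, against 5.78% at the same signal, and 0 of 18 by closest TSS). They lay 38641 and 35516 bp from Tgfb2, with 33 and 185 and with 71 and 402 counts (2.32 and 2.35), and 18768 bp from Tgfbr2. None of 12 regions near fetal liver genes was chosen, against 8.30% at the same signal, a share that amounts to about 1 region.

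Markers of other liver cells were examined by closest protein-coding gene. Near 20 endothelial markers, 2 of 42 regions were chosen (4.76%, against 7.51% at the same signal), in Kdr (59 and 133 counts) and Pecam1 (53 and 132). By closest TSS, 1 of 13 was chosen (7.69%, against 8.84%). Near 14 stellate cell markers, 3 of 14 were chosen (21.4%, against 8.03% at the same signal, and 0 of 3 by closest TSS), 2 of them over 130 kb from Pdgfra and 1 230794 bp from Dcn. None of 5 regions near macrophage markers, 13 near cholangiocyte markers and 6 near lymphocyte markers was chosen, where the shares at the same signal were 4.98%, 6.03% and 3.38%.

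Promoter regions of these markers, within 1 kb of a TSS, moved in different directions between the libraries. The labelled tissue was liver, and all 12 hepatocyte markers had an open promoter region. These had a median log2 ratio of -0.77 (-1.32 to 0.015, 1 above 0). Those of 14 of 20 endothelial markers had a median of 1.18 (-1.17 to 1.78, 12 above 0), though their summed counts were 1036 and 1192. All 4 measured of 13 macrophage markers were above 0 (median 1.28, from 0.53 to 2.05), with 102 and 243 summed counts, and Adgre1, Clec4f, Csf1r and Cd68 had no promoter region. The 7 measured of 14 stellate markers had a median of -0.70, with 2 above 0, and the 4 of 9 cholangiocyte markers -0.26. None of 10 lymphocyte markers had a promoter region. The part of other cell types in the chosen regions was not tested.

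Promoters of the genes closest to chosen regions had a median log2 ratio of -0.41 (449 of 1288 genes with a promoter region), and 24.5% were above 0. For genes closest only to other distal regions the median was -0.60 (4587 genes), and 11.9% were above 0. Over all 13163 genes with a promoter region, the values were -0.57 and 14.9%. Most promoters of the genes closest to chosen regions were thus lower in Mettl3-HKO on the scale of library totals.

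Some chosen regions lay at gene families with many copies, which were examined after their values were seen. tRNA genes were overlapped by 12 chosen regions (0.805%), against 0.178% of other distal regions after weighting, and 9 of the 12 were on chromosome 13 between Trim27 and Btn1a1. Examples are a region 17805 bp from H4bc24 with 27 and 176 counts (log2 ratio 2.52) and one near Trim27 with 70 and 210 (1.44). Of 26 distal regions closest to vomeronasal receptor genes (Vmn), 7 were chosen (26.9%, against 6.45% at the same signal), led by a region near Vmn2r4 with 89 and 782 counts (2.99, from 2.68 to 3.33) and one near Vmn2r6 with 14 and 208 (3.66). A further region, 35411 bp from Vmn1r223 with 39 and 170 counts, was among both these 7 and the 12 over tRNA genes. The median log2 ratio was -0.027 over the 26 regions, and -0.78 over the 12 near Vmn2r genes, of which 3 were chosen. Of 50 regions near olfactory receptor genes (Olfr), 3 were chosen (6.00%, against 6.54% at the same signal). Shares in other families were 4.23% for Serpin (against 5.26%), 6.17% for Cyp (6.15%), 3.37% for Slc (5.45%) and 6.94% for Zfp genes (5.79%). For Defb genes 0 of 4 were chosen (3.86% at the same signal). Reads at near-identical copies may map to more than one place. The authors removed reads of low mapping quality, and any further treatment of such reads is not given in the sources used here.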

How the data were processed

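Liver ATAC-seq of 1 pooled Mettl3 flox/flox library and 1 pooled Mettl3-HKO library was used. The authors trimmed adaptors with skewer, aligned reads to GRCm38 with BWA, filtered them by mapping quality, proper pairing and length, left out mitochondrial reads, and called peaks with MACS2, keeping duplicate reads. How reads were counted and any shift of their ends for Tn5 are not given in the sources used here. The authors deposited raw counts per region and RPM, and the RPM values equal the count plus 1 over a library total, which was recovered from the values. The deposited table also marks the library in which a peak was called. Its columns of fold enrichment and log2 fold change, the latter the authors' own comparison, were not used.

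Repeated rows of a region, 5272 of 74821, were used once. Log2 ratios were computed with 1 read added to each count and scaled to library totals. Intervals cover counting error only and take reads as independent, which retained duplicates are not. No test between groups was made. A closest-TSS symbol was given for 42.4% of the chosen regions, so regions were also named by the closest protein-coding gene of RefSeq on the same build, whose strand came from RefSeq promoter windows or from the gene of the same symbol in the table. Promoter windows were held for 79.9% of coding genes, and 43 chosen regions lie on chromosomes without any. Named are regions highest in log2 ratio or in count, longest, or farthest from a TSS, genes and runs with the most chosen regions, regions nearest the thresholds, and up to 4 genes per list. Atf3 and Fosb of the immediate early list were named beyond that rule after their values were seen. Regions past gene ends, at promoters, tRNA and receptor genes were added after the values were seen. The members and lists were chosen with earlier results of these data known. Shares at the same signal, the mean over a list's regions of the share chosen in each region's class of summed count, were also added then. The scripts were tested on simulated data. Alternatives to scaling, added count, distance, count and ratio limits, neighbour distance and weighting were computed. The software was scipy 1.17.1, pandas 2.3.3 and numpy 2.4.6 in Python 3.11.15, with matplotlib 3.10.9 for figures.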

Additional observations from a re-analysis of the deposited data

How the results depend on the processing

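With 1 pooled library per group, no replicate could be left out and depth limits each value only through counting error. No paired analysis was possible because the result comes from no test and the labels carry no replicate numbers. Centred on the median of all distinct regions, 2564 regions (9.98%) were chosen, 36.0% of them with another within 50 kb and 29.1% with a peak only in Mettl3-HKO. Scaled to the reads on regions, these values were 3183 (12.4%), 39.0% and 25.9%. All 1491 regions were kept in both. With 10 added to each count, 5.03% were chosen. With distances over 5000 bp, 6.36% were chosen, with a median distance of 23622 bp, 25.7% with a neighbour and 36.9% with a peak only in Mettl3-HKO. Over 10 kb the values were 6.77%, 30235 bp, 23.1% and 35.9%. With at least 300 summed counts, 371 regions (2.68%) were chosen, with a median length of 642 bp and distance of 16918 bp, 17.0% with a neighbour and 15.1% with a peak only in Mettl3-HKO. With no count minimum there were 8623 (15.6%), with a median length of 304 bp, 51.2% with a neighbour and 86.5% with a peak only in Mettl3-HKO. With a log2 ratio of at least 1.5 there were 715 (2.78%), with 22.7% and 56.5%. Within 20 kb, 21.1% had a neighbour, and within 100 kb 35.7%. The difference in median length from other distal regions was 54 bp with weights, but -30 bp without them and -60 bp with classes of the Mettl3-HKO count, and the cause was not tested. The difference in distance, 4474 bp, was 5269 and 5465 bp under these alternatives.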
